A study of Mus musculus with 8 samples.

Results

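Ubiquitin and proteasome pathway genes were followed here through the Pol II pSer5 peaks assigned to them in sorted lung smooth muscle cells (SMCs). Members were all peaks whose assigned gene symbol began with *Psm*, *Ube*, *Usp*, *Uba*, *Ubr*, *Ubx*, *Ubqln*, *Fbx*, *Rnf*, *Trim*, *Klhl*, *Otud*, *Herc* or *March*, or with *Cul* and a digit. This rule took 45 of 1761 peaks, each of a different gene. Of these, 41 were promoter peaks, centred within 5000 nt of the transcription start site (TSS) of the assigned gene, among 1125 such peaks in all. The other 4, of *Fbxo15*, *Psma6*, *Rnf125* and *Trim62*, were gene-body peaks, centred farther inside the gene, among 230. A further 406 peaks had no assigned gene.

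Chromatin was immunoprecipitated with an antibody against RNA polymerase II phosphorylated at serine 5 of its C-terminal repeats (Pol II pSer5), the form found at transcription start sites. Cells had been exposed to 100 µmol DRB for 1 h at 4 °C, a kinase inhibitor that keeps paused polymerase from moving into the gene. The comparison asked whether loss of *Tet3*, which encodes an enzyme oxidizing 5-methylcytosine in DNA, altered where and how much Pol II pSer5 was bound. All cells came from the lungs of C57BL/6 mice and were purified by FACS for the tdTomato reporter, after hematopoietic cells had been removed with antibody-coated beads. In Tet3smKO:T mice, tamoxifen-inducible Cre under the α-SMA promoter deleted floxed *Tet3* in adult animals, induced from 8 weeks of age, that also carried the *ROSA26* tdTomato reporter. Control (Ctrl) mice, called WT in the labels and controls here, had no floxed *Tet3* allele. For controls in general the methods give Cre, the reporter or both. Cells of both genotypes were sorted for tdTomato, so the reporter was not particular to the mutant. The age at which these cells were sorted is not given in the sources used here. The methods speak of at least 2 biological replicates for quantitative analyses in general but do not say for this experiment that each library came from separate animals, so every p-value measures the spread between libraries, which may be partly technical. The α-SMA promoter is not restricted to airway muscle, and a lung sort of this kind can hold vascular SMCs and other α-SMA-positive cells. There were 2 immunoprecipitated libraries per genotype, and the 4 input samples were not analysed here. No peak was assigned to *Tet3* or to any of 8 smooth muscle, 5 epithelial, 3 endothelial, 3 leukocyte and 3 fibroblast marker genes, so neither the deletion nor the cell type could be checked in these values.

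Ubiquitin is a small protein that is joined to other proteins by a relay of enzymes. An E1 enzyme activates it, an E2 enzyme carries it, and an E3 ligase chooses the substrate; chains of ubiquitin can then send the substrate to the proteasome, while deubiquitinases remove them. Most RING, TRIM and MARCH ligases pass ubiquitin directly from E2 to substrate. Cullins hold exchangeable receptors of the F-box and Klhl families, and HECT ligases take ubiquitin onto themselves first. Muscle cells use this system to renew contractile and signaling proteins, and most of its genes are expressed in all cells from promoters rich in CpG dinucleotides. Besides the proteasome, the members held 7 E2 genes, 10 RING, TRIM or MARCH genes, 7 cullin, F-box or Klhl genes, 4 HECT or UBR genes, 8 deubiquitinase genes and 2 UBX or ubiquilin genes. No gene of an E1 enzyme was among them. The prefixes also took 2 genes named alike but outside ubiquitin conjugation, *Usp6nl*, a RAB GTPase-activating protein, and *Uspl1*, a SUMO isopeptidase.

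The sequences under 6 peaks are given. The promoter peaks among them were picked from members whose genotypes did not overlap, and none was called different in the comparison of genotypes below. The *Trim62* peak is the only member gene-body peak far from any annotated start. All 6 sequences were chosen after the values of their peaks had been seen. They were read from the GRCm38 genome along the strand of the gene. Capitals mark matches, on either strand, to the GC box GGGCGG, the ETS motif CCGGAAG or the E-box CACGTG. Those of *Ubqln1* (chr13:58215567-58215765, minus strand), *Ube3a* (chr7:59228543-59228814, plus strand) and *Cul4a* (chr8:13105528-13105757, plus strand) are promoter peaks with lower values in both Tet3smKO:T libraries. Those of *Usp16* (chr16:87454907-87455103, plus strand) and *Psmc4* (chr7:28050076-28050241, minus strand) are promoter peaks with higher values in both. The *Trim62* peak (chr4:128891325-128891484, plus strand) lies inside an intron.
Ubqln1: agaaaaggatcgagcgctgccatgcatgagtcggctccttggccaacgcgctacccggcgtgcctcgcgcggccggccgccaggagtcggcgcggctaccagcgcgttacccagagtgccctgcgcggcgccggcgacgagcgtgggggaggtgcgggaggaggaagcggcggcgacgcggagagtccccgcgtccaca
Ube3a: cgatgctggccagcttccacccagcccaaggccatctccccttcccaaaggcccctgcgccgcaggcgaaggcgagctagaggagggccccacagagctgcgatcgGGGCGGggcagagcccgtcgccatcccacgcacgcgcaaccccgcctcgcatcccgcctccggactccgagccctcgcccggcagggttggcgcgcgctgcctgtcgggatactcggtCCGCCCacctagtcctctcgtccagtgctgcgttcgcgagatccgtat
Cul4a: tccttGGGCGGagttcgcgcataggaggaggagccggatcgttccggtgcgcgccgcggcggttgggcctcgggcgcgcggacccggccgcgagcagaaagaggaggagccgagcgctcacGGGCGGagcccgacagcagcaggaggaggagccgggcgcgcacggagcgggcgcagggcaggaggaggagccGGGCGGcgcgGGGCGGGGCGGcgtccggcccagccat
Usp16: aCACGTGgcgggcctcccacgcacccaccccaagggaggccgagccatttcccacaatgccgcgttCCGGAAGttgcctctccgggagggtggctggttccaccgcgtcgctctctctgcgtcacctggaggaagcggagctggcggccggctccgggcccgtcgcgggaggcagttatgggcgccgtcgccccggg
Psmc4: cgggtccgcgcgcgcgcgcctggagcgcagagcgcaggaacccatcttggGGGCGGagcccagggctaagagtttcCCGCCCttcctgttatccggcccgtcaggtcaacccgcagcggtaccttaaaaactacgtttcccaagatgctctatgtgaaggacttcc
Trim62: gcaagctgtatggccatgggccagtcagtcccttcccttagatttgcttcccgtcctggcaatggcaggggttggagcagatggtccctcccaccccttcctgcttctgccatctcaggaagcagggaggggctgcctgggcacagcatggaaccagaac

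The 5 promoter sequences held between 16 and 37 CpG dinucleotides each, whereas the 160-nt *Trim62* sequence held 1. The other gene-body peaks were richer, with 22 (*Rnf125*), 19 (*Psma6*) and 8 (*Fbxo15*) CpGs in 200 nt around the centre. The *Cul4a* sequence carried 5 GC boxes, of which the last 2 overlap by 1 base, and those of *Ube3a* and *Psmc4* carried 2 each. The *Usp16* sequence carried 1 ETS motif and 1 E-box, and the *Ubqln1* sequence carried none of the 3 motifs. In windows of 200 nt around the peak centres, the 41 member promoter peaks had a median GC content of 73.0%, with a range from 60 to 81.5%, beside a median of 69.0% over all promoter peaks. The median ratio of observed to expected CpG was 0.985 in members and 0.952 in all promoter peaks, and the median number of CpGs per window was 25 and 22. The GC box, which SP and KLF factors bind, was present in 34 of 41 member windows (82.9%) and in 64.1% of all promoter windows. The ETS motif was present in 21 of 41 (51.2%) and in 29.0% of all. The NRF1 core GCGCATGC was found in 1 member, *Ube2k* (2.44%), beside 9.78% of all promoter windows. The other motifs searched on both strands were CCAAT, present in 14.6% of members and 16.4% of all, CACGTG, in 12.2% and 7.38%, the cyclic AMP element TGACGTCA, in 0 members and 3.47%, and the TATA box TATAAA, in 0 members and 1.42%. The core of the antioxidant response element, TGACNNNGC, which NRF2 binds in stress-induced genes, was present in 6 members (14.6%), among them *Psmd7*, *Otud6b* and *Otud1*, and in 11.7% of all promoter windows. These matches are descriptions of sequence, and the differences between shares were not tested.

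Most member promoter peaks lay directly over transcript starts. Of 41, 32 (78.0%) were centred no more than 100 nt from the TSS, beside 71.5% of all promoter peaks, and 22 (53.7%) were centred upstream of it, beside 47.5%. The widths ran from 134 to 399 nt with a median of 190 nt, beside 203 nt for all promoter peaks. The peaks of *Psmf1*, *Trim39* and *Usp16*, centred 2874.5, 541 and 302 nt inside the gene, lay 1.5, 80 and 20 nt from another annotated start of the same gene. All 41 lay within 228 nt of some transcript start of their own gene in GENCODE M21. The peaks of *Ube2m* and *Rnf168*, centred 228 and 208.5 nt from the nearest start, covered none. In 5 of 41 (12.2%), a coding gene on the opposite strand started within 500 nt, beside 16.5% of all promoter peaks. These pairs were *Cul4a* and *Pcid2*, *March7* and *Baz2b*, *Ube2k* and *Smim14*, *Fbxo45* and *Wdr53*, and *Uspl1* and *Hmgb1*, and for a shared start the polymerases of each gene cannot be told apart.

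**Figure D1:**
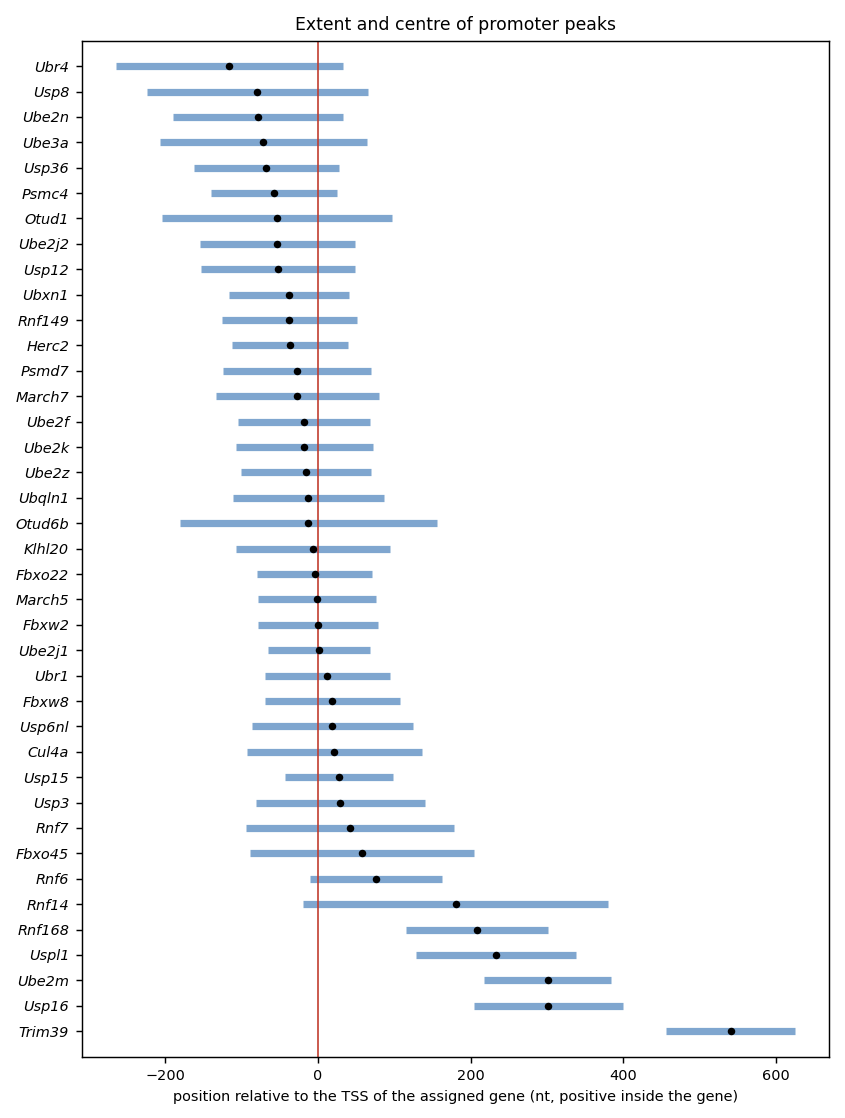
Each blue bar is the extent of a member promoter peak and the black dot its centre, in nt relative to the TSS of the assigned gene (red line; positive values are inside the gene); 39 of 41 peaks are drawn, and *Psmf1*, centred at 2874.5 nt, is off the scale. Most bars cover the TSS. Those of *Trim39*, *Usp16* and *Uspl1* lie farther inside, beside other annotated starts, and those of *Ube2m* and *Rnf168* lie farther inside and cover no annotated start.

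The 4 gene-body peaks were of different kinds. The *Psma6* peak, of a 20S proteasome alpha subunit, lay 10 nt from another annotated start of *Psma6* and overlapped an exon, and the *Rnf125* peak, of a RING ligase that acts on RIG-I, lay 97 nt from another start of *Rnf125*, also over an exon. The *Fbxo15* peak lay in an intron of that F-box gene, 566 nt from its nearest own start but 26 nt from a start of *Timm21*, a mitochondrial import gene on the opposite strand, so polymerase of *Fbxo15* and of *Timm21* cannot be told apart there. The *Trim62* peak alone was far from any annotated start, at 7816.5 nt. Over all members, 44 of 45 peaks lay within 500 nt of some transcript start, beside 77.4% of all peaks, 96.3% of all promoter peaks and 39.6% of all gene-body peaks.

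The deposited values are normalized read numbers per peak, rounded to whole numbers, on a scale shared by the 4 libraries. Summed over all peaks they came to 26482 and 27058 in Ctrl replicates 1 and 2 and to 25673 and 26624 in Tet3smKO:T replicates 1 and 2. The members took 686, 683, 648 and 678 of these in the same order. Their share was 2.56% ± 0.0468 (SD, n = 2) in the Ctrl libraries and 2.54% ± 0.0159 (SD, n = 2) in the mutant libraries, close to their 2.56% share of peaks, and the genotypes overlapped. Dividing by each library's normalization factor, estimated from the steps between its values, the median member peak stood for about 14.3 and 10.4 reads in Ctrl and 17.4 and 10.9 reads in Tet3smKO:T. Counting error of these estimated reads alone is 24 to 31.1% of the value. The figures leave out the error of the subtracted input and any other spread between libraries.

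Values of the member peaks ranged from 0 to 49, beside 0 to 129 over all peaks. Per 100 nt of peak, the median member promoter peak had a level of 6.64, with a range from 3.21 to 11.1, beside 6.99 for all promoter peaks. The lowest quartile of all promoter peaks by this level held 14 of the 41 members, the second 9, the third 7 and the highest 11. The levels were highest at *Ube3a* (11.1 per 100 nt), *Ubqln1* (10.9) and *Otud1* (10.7) and lowest at *Rnf168* (3.21) and *Rnf6* (3.45). The 4 proteasome genes lay low and close together, from 4.73 to 5.46 per 100 nt, with a median of 4.88. Across the 45 members, log2 values correlated between replicates with a Pearson r of 0.66 in Ctrl and 0.68 in Tet3smKO:T, and between libraries of different genotype with 0.54 to 0.74. These correlations across genes rest on peaks that share library depth and peak width; among the members the values within a genotype fell inside the range between genotypes. Over all 1761 peaks the values within a genotype, 0.661 and 0.664, lay above those between genotypes, 0.545 to 0.596.

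**Figure D2:**
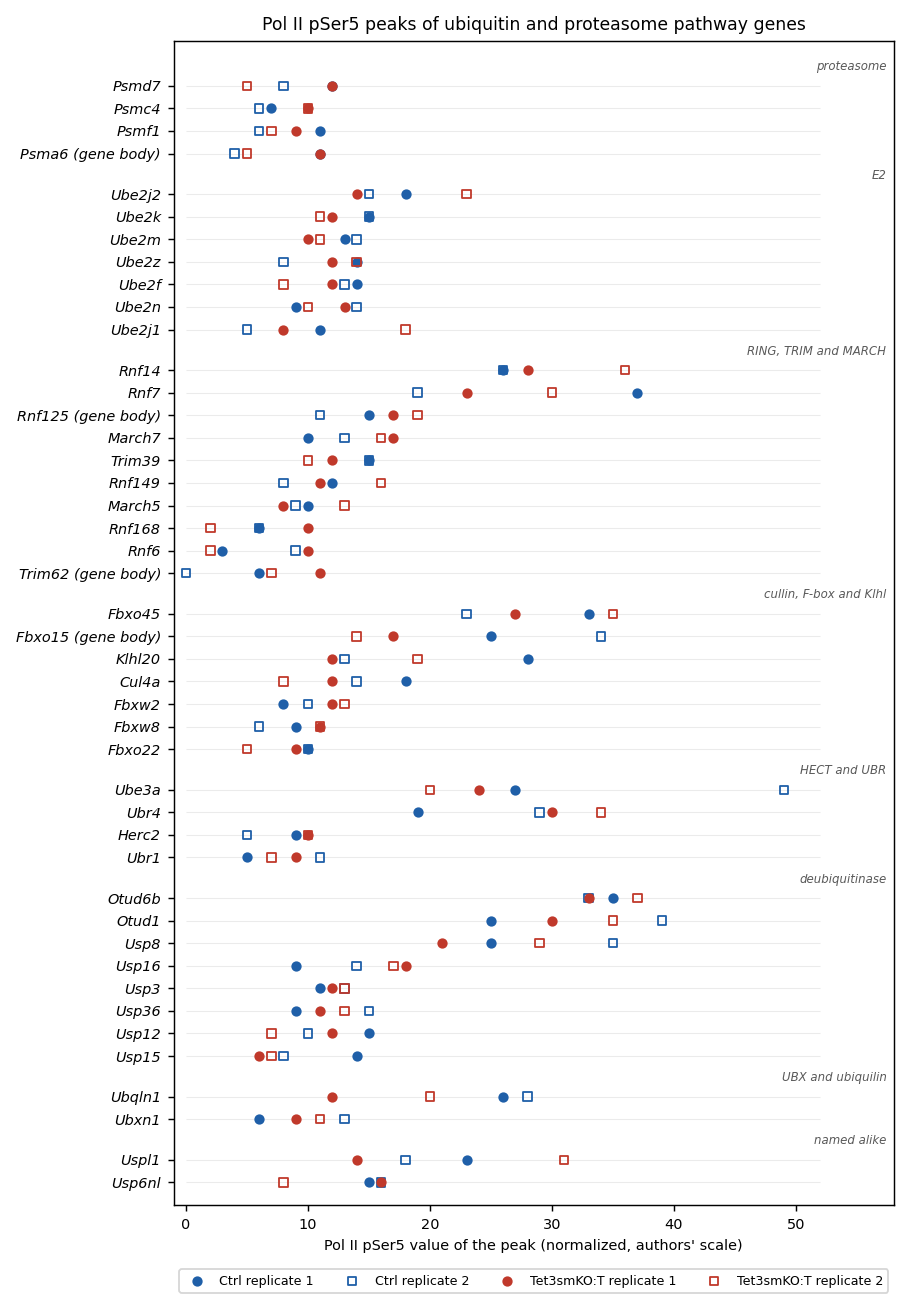
Normalized Pol II pSer5 value (x axis, authors' scale) of 44 of the 45 member peaks in each library, grouped by role; blue marks are the 2 Ctrl libraries, red marks the 2 Tet3smKO:T libraries, circles replicate 1 and open squares replicate 2. Red and blue marks are interleaved in most rows, and the genotypes stand apart by the widest gaps in *Fbxo15* and *Ubqln1*.

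No member peak differed between genotypes after adjustment. limma on log2(value + 1), with Benjamini–Hochberg adjustment over all 1761 peaks, called 0 peaks (percent called 0%), and the lowest adjusted p was 0.681 over all peaks and among the members alike. At an unadjusted p under 0.05, 127 peaks stood out over the whole table, 57 higher and 70 lower in Tet3smKO:T. Of the 41 member promoter peaks, 0 were higher and 0 lower by this measure, beside 1.96% and 2.84% of all promoter peaks. Of the 4 member gene-body peaks, 0 were higher and 1 (*Fbxo15*) lower, beside 6.09% and 5.65% of all gene-body peaks.

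Counting instead the peaks whose genotypes did not overlap, 8 of 41 member promoter peaks (19.5%) were higher and 9 (22%) lower in both Tet3smKO:T libraries, beside 14.6% and 17.4% of all promoter peaks. Among the gene-body peaks, 2 of 4 were higher and 1 lower, beside 22.6% and 14.8%. The median log2 difference (Tet3smKO:T minus Ctrl) was 0.035 over the member promoter peaks, of which 22 were positive and 19 negative, and -0.03 over all promoter peaks. Over the 4 gene-body peaks it was 0.29, beside 0.10 for all gene-body peaks. The values were normalized between libraries, so a change of binding shared by most peaks would be scaled away and cannot show in these medians. The median size of the difference regardless of sign was 0.36 in members, and replicates of the same genotype differed by a median of 0.51 in Ctrl and 0.35 in Tet3smKO:T. Over all peaks these medians were 0.33, 0.42 and 0.39. Without Ctrl replicate 1 or 2 the median of the promoter members was -0.05 or -0.02, and without Ctrl replicate 2 that of the gene-body members was -0.13, so that the direction of either median depends on a single library. The median of the gene-body members was also negative, at -0.21, when only the upper 75% of peaks by mean value were kept. The members were spread among all peaks on the plot of difference against mean value.

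**Figure D3:**
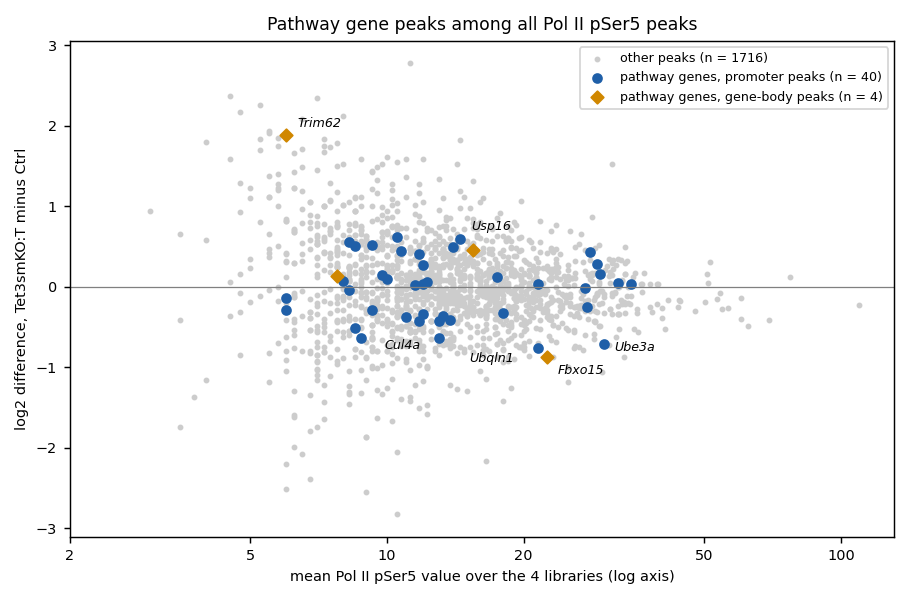
Log2 difference between genotypes (y axis) against the mean normalized value over the 4 libraries (x axis, log scale) for 1760 of the 1761 peaks; grey dots are the 1716 other peaks, blue dots 40 of the member promoter peaks and orange diamonds the 4 member gene-body peaks. These promoter peaks lie between -0.76 and 0.62, inside the cloud of other peaks, and *Trim62*, at a mean value of 6, is the highest member at 1.89.

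At the 4 proteasome genes among the members, levels were low in every library and only *Psmc4* stood apart by genotype. *Psmc4*, an ATPase of the 19S regulatory particle, had values of 7 and 6 in the controls and 10 and 10 in the mutants. Its log2 difference was 0.56 ± 0.36 (SE), with an adjusted p of 0.716. *Psmd7*, a lid subunit of the same particle, had 12 and 8 in the controls and 12 and 5 in the mutants, and *Psmf1*, a proteasome inhibitor, had 11 and 6 against 9 and 7. *Psma6* had 11 and 4 against 11 and 5. In each of *Psmd7*, *Psmf1* and *Psma6* the genotypes overlapped and replicate 1 was higher than replicate 2 in both genotypes. *Pomp*, a proteasome assembly gene that the prefixes do not take, was not as low. It had 20 and 18 against 25 and 29, without overlap (log2 difference 0.48 ± 0.24, SE; adjusted p = 0.715).

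Among the E2 genes, 3 of 7 were lower in both Tet3smKO:T libraries than in either Ctrl library and 0 were higher, beside 17.4% and 14.6% of all promoter peaks, and none differed by limma. *Ube2f* and *Ube2m* encode the E2 enzymes that attach the ubiquitin-like protein NEDD8 to cullins. *Ube2f* had values of 14 and 13 in the controls and 12 and 8 in the mutants, with a log2 difference of -0.42 ± 0.32 (SE; adjusted p = 0.740). *Ube2m* had 13 and 14 against 10 and 11, a difference of -0.33 ± 0.28 (SE; adjusted p = 0.746). Both pairs of Ctrl values were close together and the gaps to the mutant values small. *Ube2k*, which builds ubiquitin chains on its own, had 15 and 15 against 12 and 11. *Ube2j2*, an E2 of the endoplasmic reticulum membrane with the highest mean of the group, had 18 and 15 against 14 and 23, and its relative *Ube2j1*, also in the degradation of misfolded membrane proteins, had 11 and 5 against 8 and 18. For *Ube2j2* the Tet3smKO:T libraries lay on either side of the Ctrl values, and for *Ube2j1* replicate 1 lay between them and replicate 2 above. *Ube2n*, the E2 of the chains used in inflammatory signaling, had 9 and 14 against 13 and 10, with a 95% interval of the log2 difference from -0.84 to 0.88, and *Ube2z* had 14 and 8 against 12 and 14.

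The 10 RING, TRIM and MARCH peaks included 4 that were higher and 1 that was lower in both Tet3smKO:T libraries, beside 17.1% and 16.6% of all peaks. *Rnf14*, a RING-type ligase that also binds the androgen receptor, had the highest mean value, with 26 and 26 in the controls and 28 and 36 in the mutants, and a log2 difference of 0.28 ± 0.24 (SE; adjusted p = 0.748). *March7* had 10 and 13 against 17 and 16, a difference of 0.50 ± 0.29 (SE; adjusted p = 0.716). *Rnf125* had 15 and 11 against 17 and 19, a difference of 0.45 ± 0.29 (SE; adjusted p = 0.716). In these 3 the genotypes did not overlap, but the gap was between 2 and 3 units of the normalized value. *Trim39*, a ligase that inhibits the anaphase-promoting complex, went the other way with 15 and 15 against 12 and 10 (log2 difference -0.42 ± 0.28, SE; adjusted p = 0.716).

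*Trim62*, whose peak was the intronic peak described above, had values of 6 and 0 in the controls and 11 and 7 in the mutants. Its log2 difference was 1.89 ± 1.19 (SE), with a 95% interval from -1.06 to 4.84 and an adjusted p of 0.716. With a Ctrl value of 0 in replicate 2 the size depends on the pseudocount, being 3.51 with 0.1 and 0.58 with 10, and without that library it was 0.49. Without Ctrl replicate 1 it was 3.29. *Rnf7*, the RING subunit of cullin 5 ligases and partner of *Ube2f*, had 37 and 19 against 23 and 30, so that the Ctrl libraries enclosed the mutant ones. *Rnf168*, which ubiquitinates histones at DNA breaks, had 6 and 6 against 10 and 2, and *Rnf6* had 3 and 9 against 10 and 2. *March5*, a ligase of the mitochondrial outer membrane, had 10 and 9 against 8 and 13, and *Rnf149* had 12 and 8 against 11 and 16. In *Rnf7*, *Rnf168*, *Rnf6*, *March5* and *Rnf149* the genotypes overlapped, whereas in *Trim62* they did not.

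**Figure D4:**
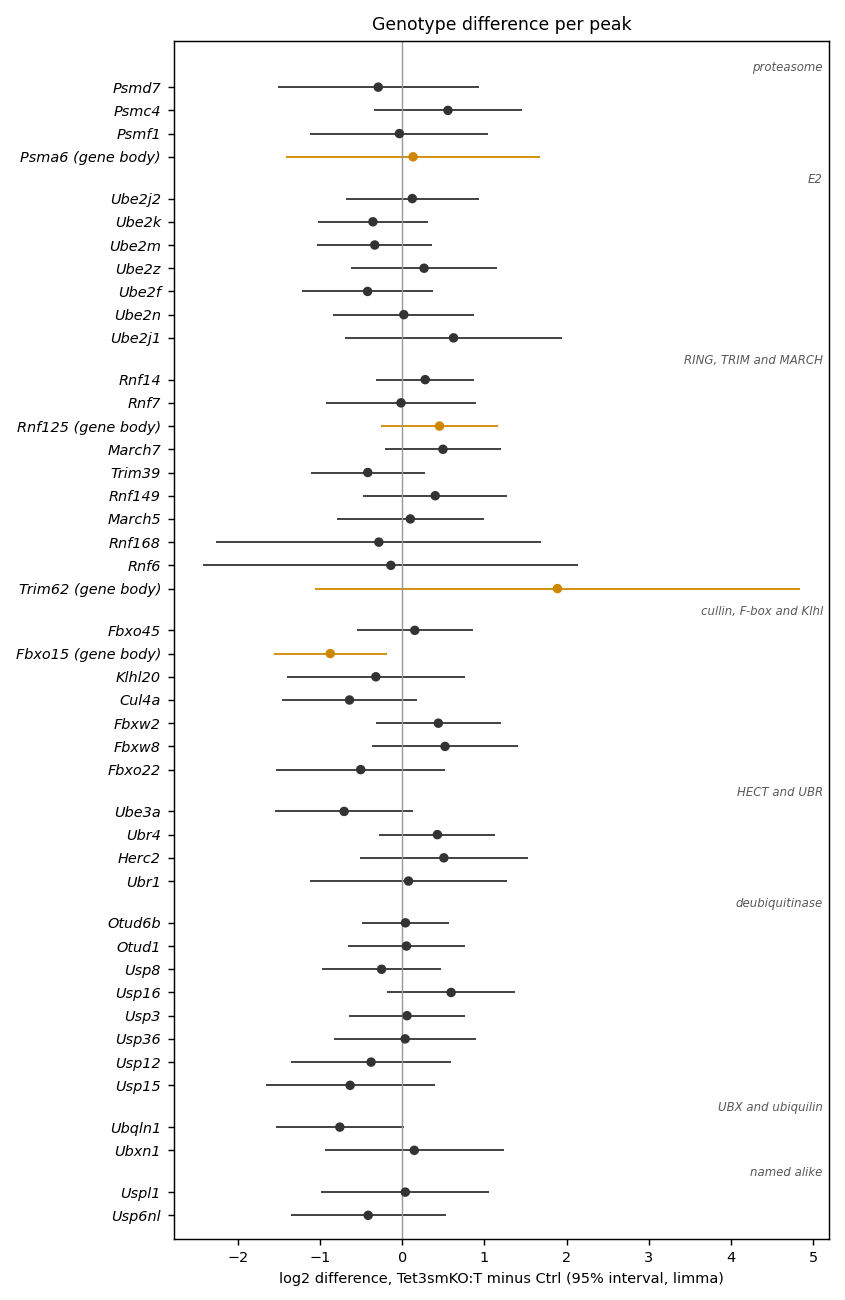
Log2 difference between genotypes (Tet3smKO:T minus Ctrl, x axis) with its 95% interval from limma for 44 of the 45 member peaks, grouped by role; black marks promoter peaks and orange marks gene-body peaks. Only the interval of *Fbxo15*, from -1.57 to -0.19, leaves out 0, before adjustment for the 1761 peaks tested, and those of *Trim62*, *Rnf6* and *Rnf168* are the widest.

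Among cullin, F-box and Klhl genes, 2 of 7 peaks were higher and 3 lower in both Tet3smKO:T libraries, beside the same 17.1% and 16.6% of all peaks. The lowest unadjusted p of any member belonged to *Fbxo15*, with values of 25 and 34 in the controls and 17 and 14 in the mutants. Its log2 difference was -0.88 ± 0.28 (SE), with a 95% interval from -1.57 to -0.19 and an adjusted p of 0.681. The 4 values did not overlap, but leaving out Ctrl replicate 2 or either Tet3smKO:T library took the unadjusted p above 0.05, and the peak lies at the start of *Timm21*. *Cul4a*, the scaffold of a ligase family active in DNA repair and replication, had 18 and 14 against 12 and 8, with a log2 difference of -0.64 ± 0.33 (SE; adjusted p = 0.715). *Fbxo22*, a receptor for histone demethylases of the KDM4 family, had 10 and 10 against 9 and 5. *Fbxw8*, the receptor paired with cullin 7, had 9 and 6 against 11 and 11 (log2 difference 0.52 ± 0.36, SE; adjusted p = 0.716), and *Fbxw2* had 8 and 10 against 12 and 13. These receptors thus pointed in different directions. The peaks of *Fbxo45*, with 33 and 23 against 27 and 35, and of *Klhl20*, a receptor for cullin 3, with 28 and 13 against 12 and 19, overlapped between genotypes.

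The HECT and UBR ligases were led by *Ube3a*, the ligase whose loss in neurons causes Angelman syndrome. Its values were 27 and 49 in the controls and 24 and 20 in the mutants, a log2 difference of -0.71 ± 0.34 (SE; adjusted p = 0.699). The genotypes did not overlap, although Ctrl replicate 1 lay only 3 units above the higher mutant value and Ctrl replicate 2 stood far above all others. *Herc2*, a very large HECT protein that binds UBE3A, had 9 and 5 against 10 and 10 (log2 difference 0.51 ± 0.41, SE; adjusted p = 0.741); this was 0.87 without Ctrl replicate 1 and 0.14 without Ctrl replicate 2. *Ubr4* had 19 and 29 against 30 and 34, and *Ubr1*, which recognizes destabilizing N-terminal residues, had 5 and 11 against 9 and 7. *Herc2* and *Ubr4* were therefore higher in both mutant libraries by small gaps, while *Ubr1* overlapped. Of the 4 peaks, 2 were thus higher and 1 lower, beside 14.6% and 17.4% of all promoter peaks.

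Of the 8 deubiquitinase peaks, 1 was higher, 1 lower and 6 overlapped between genotypes, beside 14.6% higher and 17.4% lower among all promoter peaks. *Usp16*, which removes ubiquitin from histone H2A, had 9 and 14 in the controls and 18 and 17 in the mutants, with a log2 difference of 0.59 ± 0.32 (SE; adjusted p = 0.716). *Usp15*, which acts on TGF-β receptors and SMADs, had 14 and 8 against 6 and 7, with a difference of -0.63 ± 0.42 (SE; adjusted p = 0.716). The member with the smallest standard error was *Otud6b*, with 35 and 33 against 33 and 37. Its log2 difference was 0.04 ± 0.22 (SE), and the 95% interval ran from -0.49 to 0.57. At *Otud1*, with 25 and 39 against 30 and 35, the interval ran from -0.66 to 0.76, and at *Usp8*, a deubiquitinase of endosomal receptors, with 25 and 35 against 21 and 29, from -0.98 to 0.47. The 3 strongest peaks of the group therefore showed no difference that could be told from 0, with intervals that still allow moderate changes. *Usp3*, which also acts on histone H2A, had 11 and 13 against 12 and 13. *Usp36*, a nucleolar enzyme, had 9 and 15 against 11 and 13, and *Usp12* had 15 and 10 against 12 and 7.

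*Ubqln1*, a ubiquilin that shuttles ubiquitinated proteins to the proteasome, had the lowest unadjusted p of the member promoter peaks. Its values were 26 and 28 in the controls and 12 and 20 in the mutants, a log2 difference of -0.76 ± 0.32 (SE), with a 95% interval from -1.54 to 0.02 and an adjusted p of 0.691. The Ctrl libraries lay close together, and the mutant libraries differed from each other by as much as the higher of them differed from Ctrl replicate 2. *Ubxn1*, a UBX protein that binds the p97 ATPase, had 6 and 13 against 9 and 11. Of the 2 genes named alike, *Usp6nl* had 15 and 16 against 16 and 8 and *Uspl1* had 23 and 18 against 14 and 31, and both overlapped.

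Genes of the pathway whose symbols the prefixes do not take were counted apart. A list of 277 such genes, among them ubiquitin-like modifiers, anaphase-promoting complex, COP9 and p97 genes, had 41 peaks. Of these, 0 passed after adjustment. At an unadjusted p under 0.05, 2 were higher and 2 lower, beside 3.24% and 3.98% of all peaks. Their median log2 difference was 0.04, with 23 of 41 positive, beside -0.02 over all peaks. *Birc2*, a RING ligase that restrains cell death, had 31 and 39 in the controls and 18 and 12 in the mutants (log2 difference -1.19 ± 0.30, SE; adjusted p = 0.681). *Fem1c*, a receptor for cullin 2, had 18 and 15 against 6 and 7 (-1.22 ± 0.31, SE; adjusted p = 0.681). In the other direction, *Ubl3* had 5 and 10 against 14 and 17 (1.02 ± 0.40, SE; adjusted p = 0.681) and *Plaa*, a p97 cofactor, had 10 and 8 against 15 and 16 (0.73 ± 0.29, SE; adjusted p = 0.690). The genotypes did not overlap in these 4, which were picked by their p-values. Of all 41 peaks, 6 (14.6%) were higher and 8 (19.5%) lower in both Tet3smKO:T libraries, beside 17.1% and 16.6% of all peaks. By the KEGG terms in the table, 20 peaks belonged to ubiquitin mediated proteolysis, 12 of them members, and 5 to the proteasome, 4 of them members.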

How the data were processed

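Pol II pSer5 ChIP–seq values of 2 Ctrl and 2 Tet3smKO:T libraries of sorted, DRB-treated lung SMCs were analysed. Groups and replicate numbers came from the sample titles, and value columns were matched to samples by genotype and number (0 columns left unused). Per the methods and labels, the authors checked single-end reads with FastQC, trimmed them (with Reaper by the methods, while the processing notes list Trimmomatic 0.36), removed duplicates with Picard 2.17.10 and called peaks with MACS2, with thresholds set by eye for each library. They removed blacklisted regions, unified the peaks, recounted reads and subtracted depth-normalized input. The aligner for this experiment is not given in the sources used here. Each deposited value is a score, normalized with DESeq2 and rounded to whole numbers by the authors, so a count model was not used. The deposited table also gives the fraction of each peak inside the gene.

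limma 3.58.1 (R 4.3.3; lmFit, eBayes with trend) was run on log2(value + 1), pseudocount 1, over all 1761 peaks without a filter, with Benjamini–Hochberg adjustment at 0.05; a fold change on this scale understates that of low peaks. The test was tested on simulated data with counting noise only. This simulation replaced an earlier version with added spread between libraries, in which the number of changed peaks recovered ranged, depending on the draw, from none to most, so the absence of calls here is weak evidence. Members and lists were chosen with earlier results of these data known. Named peaks were members with unadjusted p under 0.05, the strongest and the most different non-overlapping peaks of each role, and gene-body peaks; other members were named after their values were seen. Results of 1 member are not reported here on their own, though it is in the counts and medians. Role groups were assigned after the table had been seen. Transcript starts came from GENCODE M21 and sequence from GRCm38, with coordinates read as 1-based; 34 of 45 members had a RefSeq promoter, and 30 member promoter peaks were centred in it. Peak level per 100 nt is the mean value over the peak width. Python 3.11.15, numpy 2.4.6, pandas 2.3.3, pysam 0.24.0 and matplotlib 3.10.9 were used. Alternatives covered pseudocounts of 0.1 and 10, the upper 75% of peaks by mean value, quantile normalization, scaling by totals, a replicate block, a promoter distance of 1000 nt, the members outside the ubiquitin system, and leaving out each library.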

Additional observations from a re-analysis of the deposited data

How the results depend on the processing

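With 18 named peaks, 164 of 173 values under the alternatives kept their direction and side of the threshold, 9 changed sign, all on leaving out a library, and 0 passed the adjusted threshold, the lowest adjusted p (limma) being 0.326. Leaving out a library moved the log2 difference of *Fbxo45* between -0.10 and 0.40, *Otud6b* between -0.041 and 0.12, *Psma6* between -0.50 and 0.76, *Ube2j2* between -0.22 and 0.46 and *Psmd7* between -0.85 and 0.27. Without a change of sign, it moved *Herc2* between 0.14 and 0.87, *Fbxw8* between 0.26 and 0.78, *Rnf125* between 0.25 and 0.66, *Rnf14* between 0.10 and 0.45, *Usp16* between 0.30 and 0.89, *Usp15* between -1.003 and -0.27, *Ube2f* between -0.69 and -0.16, *Ube3a* between -1.13 and -0.29, *Ubqln1* between -1.11 and -0.41 and *Trim62* between 0.49 and 3.29. Scaling by the total per library gave 6 peaks past the adjusted threshold instead of 0, and 0 of them were members; the cause was not tested. At an unadjusted p under 0.05, member promoter peaks numbered 0 higher and 0 lower; quantile normalization gave 1 lower (*Ubqln1*) and scaling by the total 2 lower (*Ubqln1* and *Ube3a*). Leaving out a library gave 0 to 3 higher and 1 to 2 lower member promoter peaks, 0 to 1 higher and 0 to 1 lower gene-body peaks, and a median log2 difference of the member promoter peaks from -0.053 to 0.11, with fewer libraries in each fit and the lone library assumed to vary like the others. Without Ctrl replicate 1 these were *Herc2*, *Fbxw8* and *Psmc4* higher and *Ube3a* lower, beside *Trim62* higher and *Fbxo15* lower. Without Ctrl replicate 2 they were *Usp16* and *March7* higher and *Usp15* lower, without Tet3smKO:T replicate 1 *Usp6nl* and *Fbxo22* lower, and without Tet3smKO:T replicate 2 *Ubqln1* lower.

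With a replicate block, 74 peaks instead of 127 had an unadjusted p under 0.05 and 0 passed the adjusted threshold. Deviations of same-numbered libraries correlated with r = -0.07. With so few reads per peak, such a value cannot show whether same-numbered libraries were prepared together. The labels do not say what the replicate numbers mean. At 10.4 to 17.4 reads for the median member peak, depth limits what could be detected.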
